A study of Mus musculus and Rattus norvegicus with 12 samples.

Results

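The trophoblast transcription factors described here are 9 genes taken by their symbols from the deposited count tables: Tead4, Cdx2, Gata3, Eomes, Elf5, Tfap2c, Tfap2a, Gata2 and Hand1. All 9 are among the 24411 symbols of the mouse tables, and 7 of them among the 17315 symbols of the rat tables used here, where Eomes and Tead4 were not analysed. RNA was measured in 12 blastocyst-derived lines, each derived separately and each harvested after 2 days of culture, with 1 library per line. The 3 mouse pXEN lines (pXEN2, pXEN4 and pXEN6, passages 17 to 21) and the 4 rat XENP lines (CX1 and MAX8 of the WKY strain, MAX2 and MAX3 of F344, passages 10 to 40) shared one published culture condition. The 3 mouse XEN lines (XEN1, XEN2 and XEN5, passages 9 to 21) grew with 20% FBS on feeder layers of mouse embryo fibroblasts. The 2 mouse ES lines (ES2 and ES3, passages 14 to 16) grew in 15% FBS plus LIF and the inhibitor pair called 2i. All mouse lines were ICR, every group held male and female lines, and the labels give no genetic change or drug in any line beyond these media. Cell type and medium differed together in each mouse comparison, so a difference between groups cannot be told apart from one between media.

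The first lineage choice of the blastocyst separates the trophectoderm, which builds the trophoblast of the placenta, from the inner cell mass. The inner cell mass then gives rise to the epiblast, from which ES cells come, and to the primitive endoderm, from which XEN cells come. In outer cells of the mouse embryo low Hippo signalling lets the coactivators Yap1 and Wwtr1 (TAZ) enter the nucleus and work with the DNA-binding factor Tead4, which switches on Cdx2 and Gata3. Cdx2, Eomes, Elf5 and Tfap2c then hold the trophoblast stem cell state, and Gata2, Tfap2a and Hand1 take part in its differentiation. None of the 12 lines is a trophoblast line, so the counts describe how much RNA of these factors endoderm and pluripotent lines hold.

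The mouse libraries held 2661691 to 3483069 counts on genes and the rat libraries 1047535 to 1242937, with 12190 to 14319 genes detected per mouse library and 10033 to 10311 per rat library. The row of Rn45s, the precursor of ribosomal RNA, held 20.7% to 50.1% of the mouse gene counts and stayed in the library size. Levels are CPM (counts scaled to a common library size), and a total of 3 counts over a group, used here as the floor, came to 0.299 CPM in pXEN, 0.302 in XEN, 0.600 in ES and 0.668 in rat XENP lines. The labels were checked against markers. All 8 primitive endoderm markers had counts in pXEN and XEN lines, with summed levels of 3841 to 4696 CPM in pXEN lines, 3486 to 6223 in XEN lines and 27.1 to 51.8 in ES lines, where Gata6 and Foxa2 were at 0. The 8 pluripotency markers summed to 29.9 to 64.6 CPM in pXEN lines, 3.70 to 6.12 in XEN lines and 4604 to 4698 in ES lines. The 12 fibroblast markers, which feeder cells would carry, summed to 3.29 to 8.04 CPM in pXEN (3 of 12 with counts), 153 to 215 in XEN (12 of 12) and 8.96 to 10.3 in ES lines (5 of 12).

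Of the 9 factors, Tead4 was the one present at over 50 counts in every mouse endoderm line, and it was higher there than in ES lines. The other 8 had 0 to 14 counts in each pXEN and XEN line. Eomes, Tfap2c, Gata2 and Gata3 had lower mean levels in both kinds of endoderm line than in ES lines, and Tfap2a had its lowest mean level in XEN lines. Differences between mouse groups were tested over all genes with edgeR's quasi-likelihood test, with p-values adjusted by Benjamini-Hochberg over the genes tested and 0.05 as the threshold. Only 3 of the 9 factors (Tead4, Eomes and Tfap2a) passed the filter on low counts. Eomes passed it through its ES counts alone and Tfap2a through its pXEN counts alone. That selection favoured a difference between groups for both, and their calls are not independent of it. In pXEN against ES lines 1 of the 3 tested factors rose and 1 fell, beside 35.9% of all 10895 tested genes called in either direction (18.2% higher and 17.8% lower). In XEN against ES lines 1 rose and 2 fell, beside 38.4% of all genes (20.7% higher and 17.8% lower). In pXEN against XEN lines 1 was higher, beside 4.55% of all genes (0.918% higher and 3.63% lower). The comparisons of pXEN with ES and of XEN with ES share the ES libraries and are not independent. Each p-value sets a difference between groups against the spread between separately derived lines. That spread was estimated partly from all tested genes together, since groups held only 2 or 3 lines.

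**Figure D1:**
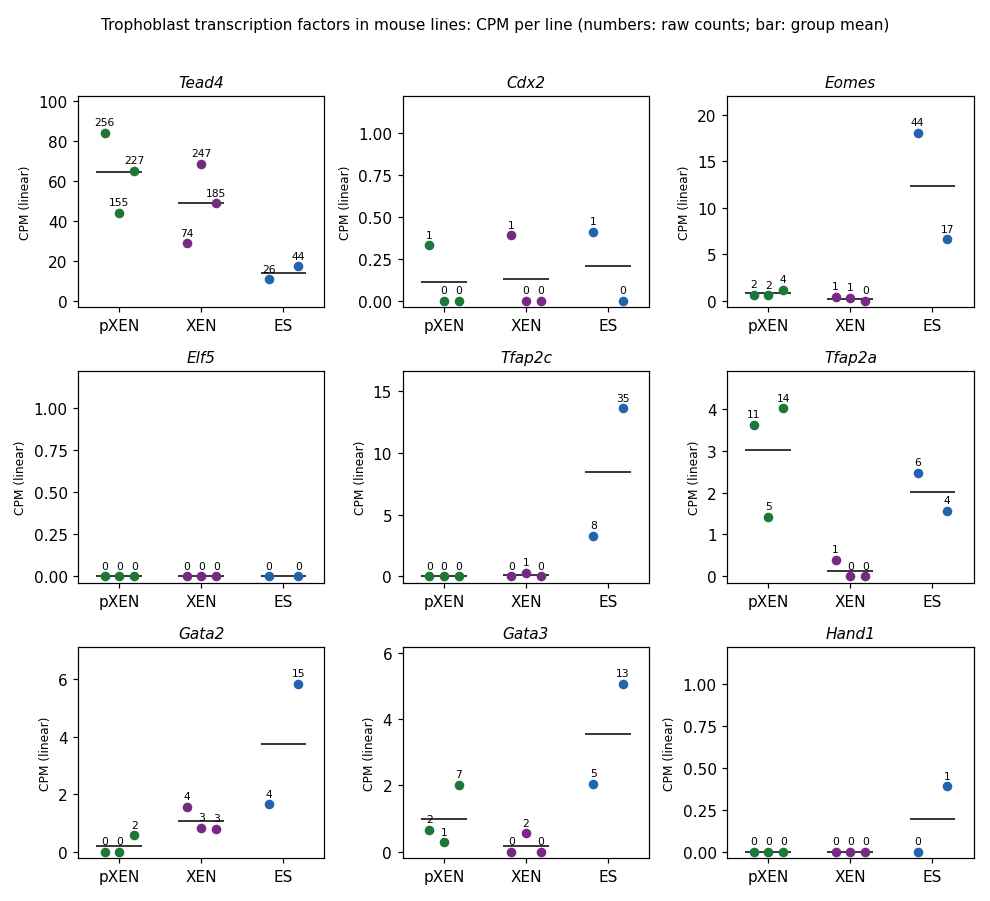
CPM of the 9 trophoblast transcription factors in each mouse line (linear axes that differ between panels), with pXEN, XEN and ES lines from left to right, the raw count printed above each point and the group mean as a bar. Tead4 is at 28.8 CPM or more in all 6 endoderm lines and at 17.1 or less in both ES lines, while Elf5 has 0 counts in all 8 lines and Cdx2 and Hand1 have at most 1 count in any line.

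Tead4 (chr6:128224288-128300823, minus strand, GRCm38) encodes the TEAD factor that trophectoderm needs. It had 256, 155 and 227 counts in pXEN2, pXEN4 and pXEN6 (84.2, 44.1 and 65.1 CPM), 74, 247 and 185 in XEN1, XEN2 and XEN5 (28.8, 68.7 and 48.9 CPM), and 26 and 44 in ES2 and ES3 (10.7 and 17.1 CPM). All 6 endoderm lines were above both ES lines, and the pXEN and XEN ranges overlapped, with XEN1 the lowest of the 6. Mean levels were 64.5 ± 20.1 CPM in pXEN (SD, n = 3), 48.8 ± 19.9 in XEN (n = 3) and 13.9 ± 4.57 in ES lines (n = 2). Tead4 rose in pXEN relative to ES (log2 fold change 2.21, SE 0.43, edgeR adjusted p = 0.00258) and in XEN relative to ES (1.81, SE 0.43, adjusted p = 0.00724). The difference between pXEN and XEN did not pass the test (log2 fold change 0.40, SE 0.34, adjusted p = 0.681). Without ES2 the XEN call was lost (1.52, adjusted p = 0.0785). The fibroblast markers summed to 153 to 215 CPM in XEN against 8.96 to 10.3 in ES lines. Each pXEN line had a sum between 3.29 and 8.04 CPM. Whether fibroblasts had a part in the Tead4 values of either endoderm group was not tested. In such bulk RNA, fewer cells that hold a transcript and less of it per cell cannot be told apart.

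Cdx2 (chr5:147300805-147307270, minus strand, GRCm38), the caudal-type homeobox factor that trophectoderm requires, had 1 count in pXEN2, 1 in XEN1 and 1 in ES2 and 0 in the other 5 mouse lines. Each group thus held 1 Cdx2 count, at or under the floor, and no fold is given. Elf5 (chr2:103411688-103450989, plus strand, GRCm38) encodes an ETS factor whose promoter methylation is known to separate ES from trophoblast stem cells in the mouse. It had 0 counts in all 8 mouse lines, which allows a level of up to 0.299 CPM in pXEN lines, 0.302 in XEN lines and 0.600 in ES lines. The unstranded column of the tables added 1 Elf5 count, in XEN5, on the strand opposite to the one used. Hand1 (chr11:57828705-57832818, minus strand, GRCm38), a basic helix-loop-helix factor of trophoblast giant cells, had 0 counts in the 6 endoderm lines, 0 in ES2 and 1 in ES3. The depth of these libraries sets the limit for all 3 genes, and a transcript under these floors could be missed.

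Eomes (chr9:118478212-118486132, plus strand, GRCm38), the T-box factor that sustains trophoblast stem cells and also acts in early mesendoderm, had 2, 2 and 4 counts in pXEN2, pXEN4 and pXEN6, 1, 1 and 0 in XEN1, XEN2 and XEN5, and 44 and 17 in ES2 and ES3. These counts correspond to 0.792 ± 0.312 CPM in pXEN (SD, n = 3), 0.223 ± 0.201 in XEN (n = 3) and 12.4 ± 8.11 in ES lines (n = 2). No endoderm line reached either ES line, and the ES lines themselves differed, with an ES2 over ES3 ratio of 2.73 (exact 95% counting interval 1.53 to 5.10). Eomes fell in pXEN relative to ES (log2 fold change -3.89, SE 0.71, edgeR adjusted p = 0.00153), a call that was lost without ES2 (-2.99, adjusted p = 0.0502). It also fell in XEN relative to ES (edgeR adjusted p = 0.000489). There the XEN lines held 2 counts in all and the ES over XEN ratio was 60.7 (counting interval 16.1 to 513). The fitted XEN value moved by over 1.5 times without XEN5 (log2 fold change -5.07, against -5.67 with all lines) and without ES2 (-4.77), with the call kept. The 8 pXEN and 2 XEN counts gave a pXEN over XEN ratio of 3.96 (0.791 to 38.3), which did not pass the edgeR test (adjusted p = 0.468). Eomes passed the low-count filter through its ES counts alone, so its p-values are not independent of that selection. The 5 early mesoderm markers, which could accompany Eomes, summed to 1.99 to 4.30 CPM in pXEN lines, 0.793 to 3.89 in XEN lines and 2.73 to 5.35 in ES lines, with 1 of 5 (Kdr) at any count in pXEN and in XEN and 4 of 5 in ES. The T-box gene T, which marks mesoderm, had 0 counts in pXEN and XEN lines, 7 in ES2 and 0 in ES3. The part of such cells in the Eomes result was not tested.

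The sequence just upstream of the transcription start is shown for Cdx2, Eomes and Elf5, the 3 stem cell factors whose RNA was at or near 0 in every endoderm line and for which RefSeq windows were found. Each line gives the 250 bases before the RefSeq start, 5′ to 3′ on the gene's strand (GRCm38.p6). They lie at chr5:147307250-147307499 (minus strand) for Cdx2, chr9:118477939-118478188 (plus strand) for Eomes and chr2:103411848-103412097 (plus strand) for Elf5, the first of its 2 windows. Capitals mark the core of the TEAD site, GGAATG or its reverse complement CATTCC, and would also mark the GATA letters AGATAA or TTATCT, on either strand.
Cdx2: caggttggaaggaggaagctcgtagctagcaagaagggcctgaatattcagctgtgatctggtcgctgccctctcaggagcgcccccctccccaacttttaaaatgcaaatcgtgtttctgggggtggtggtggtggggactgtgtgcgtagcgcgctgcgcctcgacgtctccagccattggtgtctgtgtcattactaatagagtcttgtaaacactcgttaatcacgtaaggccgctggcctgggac
Eomes: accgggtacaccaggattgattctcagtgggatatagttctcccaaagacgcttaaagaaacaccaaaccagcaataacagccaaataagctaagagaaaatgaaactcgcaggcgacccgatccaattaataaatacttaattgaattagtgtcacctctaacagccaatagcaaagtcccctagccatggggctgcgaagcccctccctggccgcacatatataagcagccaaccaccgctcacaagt
Elf5: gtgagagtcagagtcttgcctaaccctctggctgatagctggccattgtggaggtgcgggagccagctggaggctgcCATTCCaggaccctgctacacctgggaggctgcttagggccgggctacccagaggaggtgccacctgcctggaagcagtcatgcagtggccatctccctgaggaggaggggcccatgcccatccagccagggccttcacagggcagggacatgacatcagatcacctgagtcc
The Elf5 window holds the TEAD letters at 1 place, and the Cdx2 and Eomes windows hold neither motif. RefSeq windows were found for 6 of the 9 factors, 9 windows in all, of which the Elf5 window above and 1 of Gata2 hold the TEAD letters and none the GATA letters. Of all 32851 RefSeq mouse windows of this length, 12.6% hold the TEAD letters and 9.99% the GATA letters, the motifs do not overlap each other in sequence, and a match describes letters only. The Cdx2 window has 13 CpG sites, the Eomes window 8 and the Elf5 window shown 2, against a median of 6 (quartiles 2 and 16) over all windows. The second Elf5 window, at chr2:103423818-103424067 (plus strand), has 8 CpG sites and lacks the TEAD letters. DNA methylation was not measured in these libraries.

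Tfap2c (chr2:172549593-172558622, plus strand, GRCm38) encodes AP-2 gamma, which trophoblast stem cells need and which also serves in germ cells. It had 0 counts in pXEN2, pXEN4 and pXEN6, 0, 1 and 0 in XEN1, XEN2 and XEN5, and 8 and 35 in ES2 and ES3 (3.29 and 13.6 CPM). Both ES lines were above all 6 endoderm lines, and ES3 exceeded ES2 by a ratio of 4.15 (exact 95% counting interval 1.89 to 10.3). Tfap2c was at least 28.3-fold lower in pXEN than in ES lines, set against the floor of 3 counts over the pXEN group, a bound of 11.0-fold without ES3 and 45.6-fold without ES2. Against the single XEN count the ES over XEN ratio was 85.6 (14.6 to 3458). Tfap2c did not pass the filter with all rows kept. With the Rn45s row removed it passed and was called lower in pXEN (edgeR adjusted p = 0.00195) and in XEN relative to ES (adjusted p = 0.00318). Without a filter on low counts it was called lower in pXEN (edgeR adjusted p = 0.000143, over 17101 genes) and in XEN (adjusted p = 0.000398). That unfiltered fit tested 8 of the 9 factors, all but Elf5, and called 4 in pXEN against ES, 5 in XEN against ES and 1 in pXEN against XEN. The share of all genes it called was 26.6%, 27.4% and 3.96% in these comparisons. DESeq2 tested 6 of the 9 factors and called 4, 4 and 1, beside 29.5%, 31.5% and 4.99% of all genes. With a minimum count of 3 in place of 10 in the filter, a setting chosen after seeing the data, edgeR also tested 6 and called 4, 5 and 1, beside 34.6%, 36.7% and 4.62% of all genes.

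Tfap2a (chr13:40715302-40738376, minus strand, GRCm38) encodes AP-2 alpha, a relative of Tfap2c with roles in trophoblast, neural crest and surface ectoderm. It was the 1 factor called between the pXEN and the XEN lines. Its counts were 11, 5 and 14 in pXEN2, pXEN4 and pXEN6 (3.62, 1.42 and 4.02 CPM), 1, 0 and 0 in XEN1, XEN2 and XEN5, and 6 and 4 in ES2 and ES3 (2.47 and 1.56 CPM). All 3 pXEN lines and both ES lines were above all 3 XEN lines, and the pXEN and ES ranges overlapped. Tfap2a was higher in pXEN than in XEN lines (edgeR adjusted p = 0.0303), with a pXEN over XEN ratio of 29.7 (exact 95% counting interval 4.94 to 1213) that rests on a single XEN count. It was lower in XEN than in ES lines (adjusted p = 0.0222, ES over XEN ratio 19.9, interval 2.83 to 864). Between pXEN and ES it did not pass the test (log2 fold change 0.58, SE 0.79, adjusted p = 0.600). Tfap2a passed the low-count filter through its pXEN counts alone, so its p-values are not independent of that selection.

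Both Tfap2a calls depended on single lines. The pXEN call against XEN was lost without XEN2 (adjusted p = 0.0942) or XEN5 (0.113). The gene no longer passed the filter without pXEN2, without pXEN6 or with only the pXEN and XEN lines fitted, and it did not pass with only the XEN and ES lines fitted either. The XEN call against ES gave an adjusted p of 0.0572 without XEN2, 0.0671 without XEN5, 0.127 without ES2 and 0.0554 without ES3, and so did not hold in any of these fits. Without XEN1, the line with the lone count, the fitted log2 fold change was 6.28 for pXEN against XEN (adjusted p = 0.0442, against 4.42 with all lines) and -5.72 for XEN against ES (0.0196, against -3.84 with all lines). Marker sums differed between these groups as well, for pluripotency genes (29.9 to 64.6 CPM in pXEN with 5 of 8 detected, and 3.70 to 6.12 in XEN with 4 of 8, Sox2, Esrrb and Tdgf1 being at 0 in both) and for fibroblast genes (3.29 to 8.04 CPM in pXEN and 153 to 215 in XEN). Their part in the Tfap2a difference was not tested.

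Gata3 (chr2:9857078-9890034, minus strand, GRCm38) encodes a zinc finger factor that acts beside Cdx2 downstream of Tead4 in trophectoderm. It had 2, 1 and 7 counts in pXEN2, pXEN4 and pXEN6, 0, 2 and 0 in XEN1, XEN2 and XEN5, and 5 and 13 in ES2 and ES3. Mean levels were 0.984 ± 0.907 CPM in pXEN (SD, n = 3), 0.185 ± 0.321 in XEN (n = 3) and 3.56 ± 2.13 in ES lines (n = 2). pXEN6, at 2.01 CPM, came close to ES2, at 2.06, and both ES lines were above all XEN lines. In the fit without a filter Gata3 was lower in XEN than in ES lines (edgeR adjusted p = 0.0147, ES over XEN ratio 17.9, interval 4.29 to 159), a call that DESeq2 did not make (adjusted p = 0.05003). The difference between pXEN and ES did not pass there (adjusted p = 0.192, ES over pXEN ratio 3.61, 1.58 to 8.76), and neither did that between pXEN and XEN (0.500). In GENCODE vM21 another gene, 9230102O04Rik, overlaps Gata3 on the same strand, and reads of the shared stretch could not be assigned if the authors' counting annotation, which is unknown here, held it too.

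Gata2 (chr6:88193891-88207032, plus strand, GRCm38), a relative that drives placental hormone genes in trophoblast giant cells and also serves blood stem cells, had 0, 0 and 2 counts in pXEN2, pXEN4 and pXEN6. The counts were 4, 3 and 3 in XEN1, XEN2 and XEN5, and 4 and 15 in ES2 and ES3. The 3 XEN lines lay above all pXEN lines and below both ES lines in CPM, with at most 0.574 in pXEN lines, 0.793 to 1.56 in XEN lines and 1.64 to 5.85 in ES lines. In the fit without a filter Gata2 was lower in pXEN than in ES lines (edgeR adjusted p = 0.00969, ES over pXEN ratio 19.1, interval 4.60 to 169). The XEN against ES difference (adjusted p = 0.167, ES over XEN ratio 3.78, 1.67 to 9.11) and the pXEN against XEN difference (0.450, XEN over pXEN ratio 5.04, 1.07 to 47.3) did not pass. ES3 held more Gata2 than ES2 (ratio 3.55, 1.13 to 14.7), as it did for Tfap2c, while ES2 held more Eomes.

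**Figure D2:**
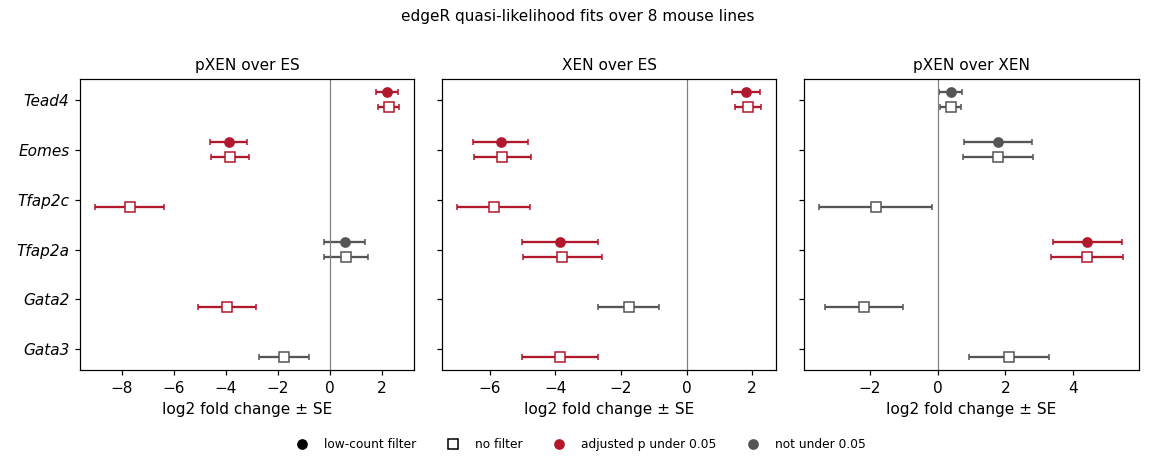
Log2 fold change ± SE from edgeR for the 6 factors with enough counts, in pXEN over ES, XEN over ES and pXEN over XEN from left to right (n = 3 pXEN, 3 XEN and 2 ES lines). Circles are the fit with the low-count filter and squares the fit without it, red marks an adjusted p under 0.05, and values against a group at 0 to 3 counts (such as Tfap2c in pXEN and XEN) are fitted values, not bounds. Tead4 lies at 2.21 and 1.81 in the ES comparisons, and Tfap2a is the red point of the right panel.

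The genes with the most similar profile to each tested factor, by Pearson's r of log2(CPM + 1) over the 8 mouse lines, are given as a description. For Tead4 they were Churc1 (r = 0.979), Slc36a4 (0.978) and Synj1 (0.977). For Eomes they were Dlgap3 (0.988), Bcat2 (0.988) and Hmgxb4 (0.986), and for Tfap2a Pcdhga11 (0.973), Mrps16 (0.947) and Ywhah (0.945). The 8 lines share their groups and media.

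Levels per kilobase of merged exons were used to compare the RNA of the members of each family (the plot of family levels). The merged length can differ from that of the transcripts present, and RNA levels do not show which factor acts. Among the TEAD factors, which share a DNA-binding domain and partners, Tead1 had the highest mean in each group, at 21.5 ± 0.297 CPM per kb in pXEN (SD, n = 3), 21.3 ± 0.986 in XEN (n = 3) and 8.83 ± 3.06 in ES lines (n = 2). Tead4 was at 17.9 ± 5.58 in pXEN, 13.6 ± 5.54 in XEN and 3.87 ± 1.27 in ES lines, and its spread in pXEN and XEN lines overlapped that of Tead2 (14.0 ± 6.50 in pXEN, 11.6 ± 1.94 in XEN and 8.56 ± 1.86 in ES). The order did not hold in every line: Tead4 was above Tead1 in pXEN2 (23.4 and 21.4 CPM per kb), and Tead2 was above Tead1 in ES2 (9.88 and 6.67). Tead3 stayed at 0.461 CPM per kb or less on average in each group. Tead1 rose in pXEN (log2 fold change 1.28, SE 0.24, edgeR adjusted p = 0.00194) and in XEN relative to ES (1.27, SE 0.24, adjusted p = 0.00216). Tead2 gave 0.71 (SE 0.37, adjusted p = 0.151) and 0.44 (SE 0.36, adjusted p = 0.359), and Tead3 did not pass either. In ES lines Tead4 was thus below Tead1 and Tead2 per kb, and in the endoderm lines it reached the range of Tead2.

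In the GATA family the primitive endoderm factors Gata4 and Gata6 stood far above the trophoblast relatives in the endoderm lines. Gata4 averaged 53.7 ± 1.37 CPM per kb in pXEN, 53.3 ± 15.9 in XEN and 0.205 ± 0.00778 in ES lines. On that scale Gata2 was at 0.0354 in pXEN, 0.197 in XEN and 0.694 in ES lines, and Gata3 at 0.247 in pXEN, 0.0466 in XEN and 0.895 in ES lines. Gata6 was at 16.1 ± 2.19 CPM per kb in pXEN and 13.2 ± 2.66 in XEN, with 0 counts in ES lines. Gata1, the red blood cell factor, had 0 counts in all 6 endoderm lines and 4 and 7 in ES2 and ES3, and Gata5 had 0 in all 8. In the AP-2 family Tfap2a was the only member over the floor in pXEN lines, and no member was over it in XEN lines. Tfap2b, Tfap2d and Tfap2e had 1 count in all over the 8 lines, of Tfap2b in an XEN line.

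The widely used ELF relatives Elf1 and Elf2 were present where Elf5 had 0 counts. Elf1 averaged 6.85 ± 1.35 CPM per kb in pXEN, 9.98 ± 3.63 in XEN and 1.27 ± 0.246 in ES lines. It rose in pXEN relative to ES (log2 fold change 2.42, SE 0.39, edgeR adjusted p = 0.000695) and in XEN relative to ES (2.96, SE 0.39, adjusted p = 0.000232). Elf2 rose in pXEN (0.93, SE 0.25, adjusted p = 0.0121, lost without ES2 or ES3) and in XEN relative to ES (1.15, SE 0.25, adjusted p = 0.00412). The epithelial factor Elf3 averaged 3.40 ± 0.582 CPM per kb in pXEN, 2.66 ± 0.453 in XEN and 6.11 ± 6.02 in ES lines and did not pass in any comparison. Among caudal factors Cdx1, which acts later in axial patterning, had 0 counts in pXEN and XEN lines and 55 and 6 in ES2 and ES3. Relative to ES, Cdx1 was lower by at least 41.7-fold in pXEN lines and by at least 41.4-fold in XEN lines, with most of the ES counts from ES2. Without ES2 these bounds were 7.82-fold and 7.75-fold, and without ES3 the pXEN bound was 75.7-fold. Of the 21 relatives 9 were tested, and 5 (Gata4, Gata6, Elf1, Tead1 and Elf2) were higher in pXEN than in ES, the same 5 in XEN than in ES, with none lower. Their median log2 fold change was 0.93 in pXEN and 1.27 in XEN against ES, beside -0.03 and 0.00 over all tested genes. Of all tested genes 18.2% were called higher and 17.8% lower in pXEN against ES, and 20.7% and 17.8% in XEN against ES. Between pXEN and XEN lines edgeR called 0 of the 9, with 0 at an unadjusted p under 0.05, and DESeq2 called 0 of 10. Over all tested genes edgeR called 4.55% there and DESeq2 4.99%.

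**Figure D3:**
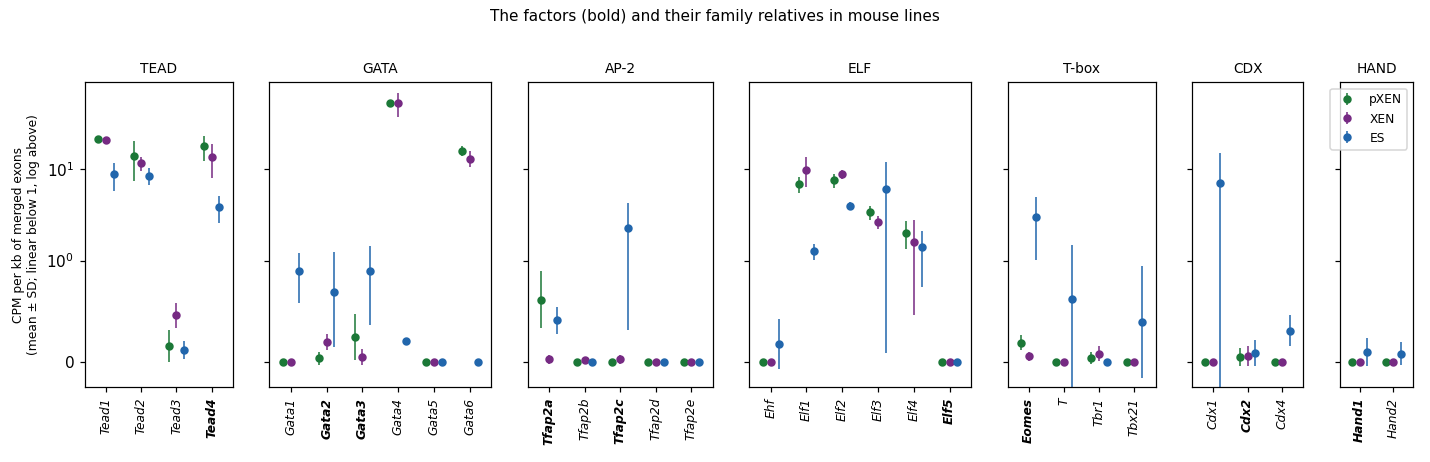
Mean level ± SD in CPM per kb of merged exons (linear below 1, log above) for the 9 factors (bold names) and their 21 family relatives, with pXEN (n = 3), XEN (n = 3) and ES lines (n = 2) from left to right at each gene. Gata4 and Gata6 stand at 53.7 and 16.1 in pXEN lines where Gata2 and Gata3 are under 1, and Tead1, Tead2 and Tead4 are the TEAD members above 1.

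The upstream Hippo list holds the coactivators of TEAD factors and the kinases and scaffolds that restrain them. Of 14 genes 13 were tested. In pXEN against ES lines 8 rose and 1 fell, with a median log2 fold change of 1.13, and in XEN against ES 8 rose and 2 fell, with a median of 1.10. The medians over all tested genes were -0.03 and 0.00. Several of the calls were lost when single lines were left out, as given with each gene. Of all tested genes 18.2% were called higher and 17.8% lower in pXEN against ES, and 20.7% and 17.8% in XEN against ES. The coactivator Yap1 averaged 132 ± 22.8 CPM over the pXEN lines (SD, n = 3) and 115 ± 16.0 over the XEN lines (n = 3), against 69.9 and 71.3 CPM in ES2 and ES3, with all endoderm lines above both ES lines. It rose in pXEN (log2 fold change 0.90, SE 0.24, edgeR adjusted p = 0.0117) and in XEN relative to ES (0.70, SE 0.24, adjusted p = 0.0358). Neither call held without ES2 or with ES3 left out, and the XEN call was also lost without XEN2 or XEN5 and with upper-quartile scaling. Wwtr1, which encodes the paralogous coactivator TAZ, averaged 81.9 ± 16.7 CPM in pXEN lines, 70.3 ± 13.2 in XEN lines and 32.6 ± 0.954 in ES lines. It rose in pXEN (1.33, SE 0.27, adjusted p = 0.00298) and in XEN relative to ES (1.10, SE 0.27, adjusted p = 0.00806), the XEN call lost without ES2 or ES3.

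Negative regulators were also among the higher genes. Amot, which encodes angiomotin, a scaffold that holds Yap1 at cell junctions, had 67, 149 and 65 counts in pXEN2, pXEN4 and pXEN6, 23, 89 and 51 in XEN1, XEN2 and XEN5, and 5 and 5 in ES2 and ES3. It rose in pXEN (log2 fold change 3.77, SE 0.62, edgeR adjusted p = 0.00081) and in XEN relative to ES (2.96, SE 0.62, adjusted p = 0.00349). The Lats kinases phosphorylate Yap1. Lats2 gave 2.29 in pXEN (SE 0.58, adjusted p = 0.0097, lost without ES2) and 2.95 in XEN against ES (SE 0.58, adjusted p = 0.00245), and Lats1 1.13 (SE 0.28, adjusted p = 0.00883, lost without ES2) and 1.43 (SE 0.28, adjusted p = 0.00267). The Lats2 values were 1.62 in pXEN and 2.28 in XEN without ES2, and 3.66 and 4.32 without ES3. Amotl2, an angiomotin relative, gave 1.45 in pXEN (adjusted p = 0.00794) and 1.42 in XEN (adjusted p = 0.00903), both lost without ES2 and at 2.20 and 2.16 without ES3. The kinase gene Stk3 gave 1.58 in XEN against ES (adjusted p = 0.00635, lost without ES2). In pXEN it gave 1.16 (adjusted p = 0.0288, lost without pXEN4 or pXEN6), and 0.80 to 1.67 with single lines left out. Amotl1, another angiomotin relative, gave 1.64 in pXEN (adjusted p = 0.0445) and 1.82 in XEN (adjusted p = 0.0275, lost without XEN1). Its pXEN call was lost with any pXEN line left out, with upper-quartile scaling and with DESeq2. With single lines left out Amotl1 ran from 1.27 to 2.18 in pXEN and 1.36 to 2.36 in XEN. Nf2, which encodes the upstream scaffold Merlin, fell in pXEN (-1.13, SE 0.31, adjusted p = 0.0146) and in XEN relative to ES (-1.21, SE 0.31, adjusted p = 0.0104), both lost without ES3. The kinase gene Stk4 fell in XEN relative to ES (-1.01, SE 0.30, adjusted p = 0.0215, lost without XEN1, XEN5, ES2 or ES3). Between pXEN and XEN lines edgeR called 0 of the 13, with 0 at an unadjusted p under 0.05 and a median log2 fold change of 0.08, and DESeq2 called 0 of 14. Over all tested genes edgeR called 4.55% there and DESeq2 4.99%. RNA levels do not give the activity or the location of the Yap1 protein.

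Genes of the trophoblast stem state other than the 9 factors split in 2 directions. Of 21 such genes 17 were tested. In pXEN against ES lines 4 rose and 7 fell (median log2 fold change 0.14), and in XEN against ES 5 rose and 7 fell (median -0.49), beside all-gene medians of -0.03 and 0.00. Of all tested genes 18.2% were called higher and 17.8% lower in pXEN against ES, and 20.7% and 17.8% in XEN against ES. The higher genes included the simple epithelial keratins Krt8 and Krt18, which primitive endoderm lines also express. Krt8 had 1497, 1734 and 1652 counts in pXEN2, pXEN4 and pXEN6, 1380, 3274 and 2119 in XEN1, XEN2 and XEN5, and 27 and 45 in ES2 and ES3. Its log2 fold change was 5.08 in pXEN (SE 0.35, edgeR adjusted p = 4.45e-06) and 5.54 in XEN against ES (SE 0.36, adjusted p = 2.86e-06). Krt18 rose by 3.76 (SE 0.53, adjusted p = 0.000437) and 4.94 (SE 0.55, adjusted p = 0.000116) on the same scale in pXEN and XEN, and by 4.57 and 5.74 without ES3. Arid3a, a DNA-binding factor that promotes trophectoderm, rose by 1.72 in pXEN (SE 0.28, adjusted p = 0.00071) and 2.07 in XEN (SE 0.28, adjusted p = 0.000253). Sox21 rose in XEN relative to ES (3.40, SE 1.03, adjusted p = 0.0299), a call lost without XEN1, without XEN5 and without a filter. The Sox21 value was 2.68 without ES2 and 5.01 without ES3. Furin, a proprotein convertase of extraembryonic ectoderm, rose by 2.45 in pXEN (SE 0.55, adjusted p = 0.00679) and 2.01 in XEN (SE 0.55, adjusted p = 0.0167). Its values were 1.82 in pXEN and 1.38 in XEN without ES2, where the XEN call was lost (adjusted p = 0.0949), and 3.66 and 3.21 without ES3.

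The lower genes were led by factors that trophoblast stem and ES cells share. Esrrb and Sox2 had 0 counts in all 6 endoderm lines and 683 and 710 (Esrrb) and 498 and 592 counts (Sox2) in ES2 and ES3. Relative to ES, Esrrb was lower by at least 933-fold in pXEN lines and by at least 924-fold in XEN lines. Nr0b1, a nuclear receptor gene of pluripotent cells, was lower by at least 107-fold in pXEN lines and by at least 106-fold in XEN lines. Plet1 fell in pXEN (log2 fold change -2.86, edgeR adjusted p = 0.0332) and in XEN relative to ES (-2.98, adjusted p = 0.0283). The pXEN call was lost without pXEN2 or pXEN6 and with DESeq2, and the XEN call without XEN1 or XEN5. Zfp281 fell in XEN relative to ES (-1.12, adjusted p = 0.0104), with values of -1.27 to -0.96 when single lines were left out. The convertase Pcsk6 and the signal Bmp4, both products of extraembryonic ectoderm in the embryo, were the 2 genes of this list that edgeR called between pXEN and XEN lines, beside 4 at an unadjusted p under 0.05 (also Cdh3 and Krt18) and 3 called of 19 by DESeq2 (also Krt18, log2 fold change -1.17, adjusted p = 0.0374, against 0.121 with edgeR). Over all tested genes edgeR called 4.55% there and DESeq2 4.99%. Bmp4 had 0 counts in the 3 pXEN lines, 8, 28 and 19 in XEN1, XEN2 and XEN5, and 25 and 19 in ES2 and ES3. It was at least 17.8-fold lower in pXEN than in XEN lines (edgeR adjusted p = 0.00511) and at least 29.6-fold lower than in ES lines (adjusted p = 0.000435). Pcsk6 had 1, 0 and 0 counts in pXEN2, pXEN4 and pXEN6, 6, 12 and 14 in XEN1, XEN2 and XEN5, and 45 and 107 in ES2 and ES3. Its XEN over pXEN ratio was 32.3 (exact 95% counting interval 5.39 to 1314, edgeR adjusted p = 0.0107), and it fell in XEN relative to ES (log2 fold change -3.23, SE 0.50, adjusted p = 0.00062, and -2.54 without ES3). The fibroblast markers, 12 of 12 with counts in XEN lines and 3 of 12 in pXEN lines, moved with the pXEN and XEN groups, and their part in the Bmp4 and Pcsk6 differences was not tested.

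**Figure D4:**
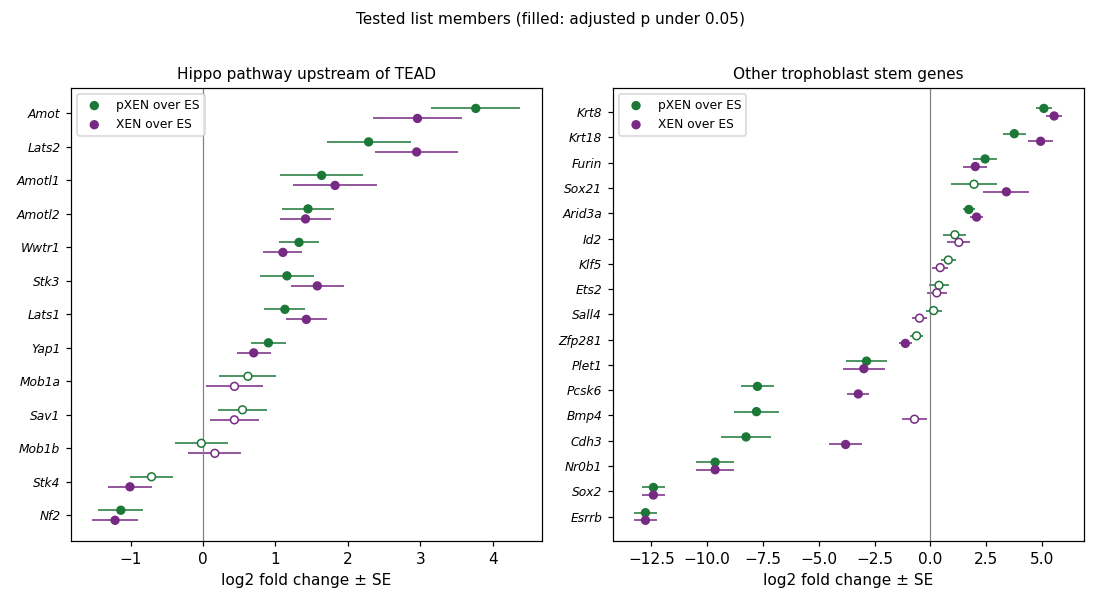
Log2 fold change ± SE from edgeR of the tested genes of the Hippo list (left) and of the other trophoblast stem genes (right), for pXEN over ES (green) and XEN over ES (purple), filled where the adjusted p is under 0.05. Amot is the highest Hippo gene at 3.77 in pXEN with Nf2 at -1.13 there, and values below -7 in the right panel belong to genes with 0 or 1 count in the endoderm group of that fold (for Bmp4, Pcsk6 and Cdh3 the pXEN group only) and are fitted values, not bounds.

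Of 21 markers of differentiated trophoblast, 12 had 0 counts in pXEN lines, 11 in XEN lines and 10 in ES lines, and 6 were tested. The placental hormone genes Prl3d1, Prl3b1, Prl4a1 and Prl7d1, the protease gene Ctsq and the cell fusion gene Synb were at 0 in every mouse line, as was the spongiotrophoblast gene Tpbpa. The hormone gene Prl2c2 was also listed at 0, but it has near-identical copies and may have lost reads that align to several places. Pparg, a nuclear receptor gene that the placental labyrinth and fat cells need, had 8, 6 and 20 counts in pXEN2, pXEN4 and pXEN6, 10, 17 and 13 in XEN1, XEN2 and XEN5, and 0 in both ES lines. Relative to ES, Pparg was higher by at least 5.60-fold in pXEN lines (edgeR adjusted p = 0.00634) and by at least 6.70-fold in XEN lines (adjusted p = 0.00484), and without pXEN6 the pXEN bound was 3.62-fold. The kinase gene Nrk, expressed in spongiotrophoblast, rose in pXEN relative to ES (log2 fold change 3.15, SE 0.86, adjusted p = 0.0138). The value was 2.34 without pXEN4, 2.47 without ES2, where the call was lost (adjusted p = 0.112), and 4.62 without ES3. Its difference between pXEN and XEN did not pass (2.36, SE 0.65, adjusted p = 0.0704). Rhox6 had 82, 185 and 216 counts in pXEN2, pXEN4 and pXEN6. The XEN1, XEN2 and XEN5 counts were 6, 2 and 51, and ES2 and ES3 had 2 and 19. With edgeR Rhox6 did not pass in pXEN against ES (3.49, SE 1.19, adjusted p = 0.0554) or against XEN (3.06, SE 0.95, adjusted p = 0.158). Peg10, an imprinted gene the placenta needs, fell in pXEN relative to ES (-1.55, SE 0.49, adjusted p = 0.0358), a call lost without pXEN2, pXEN4 or ES3, without a filter and with only the pXEN and ES lines fitted. The value was -2.21 without ES2 and -0.25 without ES3. In XEN against ES lines edgeR called Pparg alone of this list, and Peg10 had an unadjusted p under 0.05. DESeq2 called Peg10 as well there (2 of 7), and in pXEN against ES it called the same 3 genes and Rhox6 (4 of 7). Over all tested genes edgeR called 35.9% in pXEN and 38.4% in XEN against ES, and DESeq2 29.5% and 31.5%. The median log2 fold change of the 6 genes was 1.61 in pXEN (1.28 with Pparg at its bound) and 0.09 in XEN against ES, beside -0.03 and 0.00 over all genes. One of the 6 is Stra13, a symbol that RefSeq lists as an older name of more than 1 mouse gene, and without it (chosen after seeing the data) the medians were 3.15 (2.48 with Pparg at its bound) and 0.44. Between pXEN and XEN lines edgeR called 0 of the 6, with Nrk and Rhox6 the 2 genes at an unadjusted p under 0.05, and DESeq2 called 0 of 7. Over all tested genes edgeR called 4.55% there and DESeq2 4.99%.

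The rat XENP lines, kept in the pXEN condition, were described without a test against mouse, since species, genome and annotation change together and Rn45s took a far smaller share of rat counts (0.00821% to 0.0312%). Elf5 had 6, 4, 1 and 2 counts in CX1, MAX2, MAX3 and MAX8 (4.83, 3.70, 0.955 and 1.79 CPM), a mean of 2.82 ± 1.77 CPM (SD, n = 4). All 4 rat lines therefore held at least 1 Elf5 count, where no mouse line held any in the column used. Tfap2c had 1, 4, 0 and 0 counts and Gata2 had 1, 0, 1 and 0 counts in the same order of lines. Gata3 had 1 count, in MAX3. Cdx2, Tfap2a and Hand1 had 0 counts in all 4 lines, which allows up to 0.668 CPM. Multimapping reads made up 65.5% to 70.1% of the rat reads, against 7.84% to 9.65% of the mouse reads. The rat libraries also held fewer gene counts, and a transcript under that floor could be missed.

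**Figure D5:**
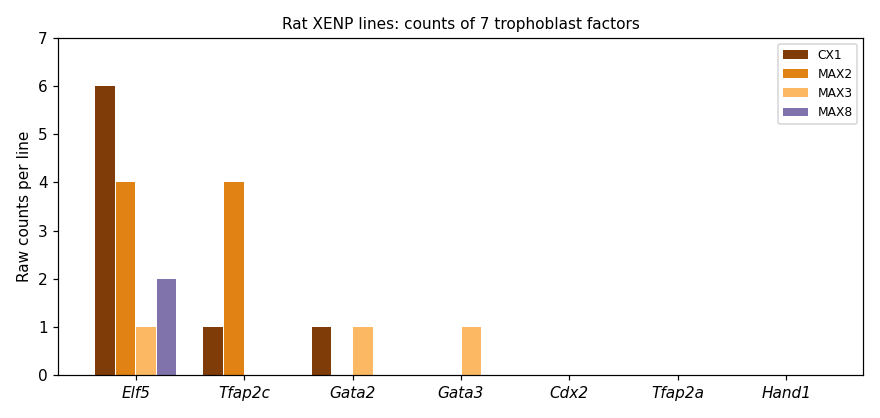
Raw counts of the 7 factors with a row used in the rat tables, as bars from 0 for CX1, MAX2, MAX3 and MAX8 from left to right at each gene. Elf5 has 1 to 6 counts in every line, and Cdx2, Tfap2a and Hand1 have 0 in all 4.

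Relatives of the factors were read in the rat lines as well. Gata4 averaged 957 ± 209 CPM and Gata6 248 ± 57.3 CPM (SD, n = 4), and all 8 primitive endoderm markers had counts, with a sum of 7700 to 11185 CPM. Tead1 had 127, 103, 125 and 125 counts in CX1, MAX2, MAX3 and MAX8 (107 ± 10.6 CPM). Tead2 had 70, 23, 19 and 20 counts in the same lines, with CX1 apart from the 3 MAX lines. Tfap2e, a little-studied AP-2 relative at 0 in the mouse lines, had 12, 18, 13 and 16 counts (13.2 ± 2.95 CPM), and it was the AP-2 gene with the most counts in rat. Elf1 averaged 195 ± 22.5 CPM and Elf2 111 ± 11.2. Of 15 differentiated trophoblast genes with a row used, 11 had 0 counts, while Tpbpa had 2, 1, 3 and 4 counts, 10 in all. The fibroblast markers summed to 0 to 1.61 CPM in the rat lines, and the 5 pluripotency markers with a row used to 6.25 to 164 CPM, with Nanog, Sox2 and Esrrb at 0. The upper end came from Pou5f1 in CX1, with 203 counts (163 CPM) against 9, 7 and 7 in MAX2, MAX3 and MAX8.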

How the data were processed

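RNA of 8 mouse and 4 rat lines was read as strand-specific, rRNA-depleted, paired-end libraries, per the labels' protocols. The tables deposited by the authors hold raw counts of reads per gene in unstranded, gene-strand and reverse-strand columns, per the file headers and values. The submitters' processing notes name CASAVA 1.8.2, Trimmomatic 0.33, STAR 2.5.1, DESeq2, mm10 and rn6, without roles. The counting annotation was not given in the sources used here. Reverse-strand counts, with 98.9% to 99.3% of the stranded counts in mouse and 99.1% to 99.2% in rat, were used. The pXEN tables carry XENP names with the same numbers, and groups were taken from the titles.

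Read classes that name no gene (73.4% to 78.3% of mouse reads and 89.7% to 91.8% of rat reads) were left out. All 8 mouse libraries were fitted together in edgeR 4.0.16 under R 4.3.3 with TMM scaling, filterByExpr (minimum count 10), robust glmQLFit and glmQLFTest, after tests on simulated data. P-values were adjusted by Benjamini-Hochberg across the 10895 genes that entered the fit, with threshold 0.05. Standard errors (SE) were obtained by dividing the absolute log2 fold change by the root of its F statistic. Mouse CPM use TMM-scaled libraries and rat CPM all gene counts. Lengths and coordinates come from GENCODE vM21, matched for 23376 of 24411 symbols, and promoter windows from RefSeq. A fold against a group at 0 is a bound against 3 counts over that group, and beside 1 to 3 counts a ratio with its exact 95% interval is given. Intervals and floors cover counting error only. DESeq2 1.42.0 and other columns, scalings, filters, samples and left-out lines were alternatives.

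The members and gene lists were chosen with earlier results of these data known. All members are named, of each list up to 6 called genes by smallest p, and of relatives those called or highest per kilobase. Genes named beyond this (Nf2, Stk4, Amotl1, Furin, Sox21, Plet1, Zfp281, Nrk, Rhox6, Cdx1 and others given only as values, such as genes at 0) were chosen after their values were seen.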

Additional observations from a re-analysis of the deposited data

Results flagged for a closer look

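Of 17 trophoblast factors and relatives with any count in the rat XENP lines, 4 had a line far from the other 3, where the gap to the nearest line, divided by the range of the 4 lines, passed Dixon's 95% critical value. Chance alone gives such a gap in about 1 of 20 groups. Tead2 gave 0.912, with 70 counts in CX1 against 19 to 23 in the MAX lines. Gata3, a member of the 9 factors, gave 1 with its only count in MAX3, and Gata1 and Gata5 each gave 1 with their only count in CX1. A single count always gives a ratio of 1, so these last 3 values say nothing of a difference between lines.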

How the results depend on the processing

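Tead4 and Eomes kept their direction in every setting run. With upper-quartile scaling the median log2 fold change over all genes moved to -0.13 in pXEN and -0.11 in XEN against ES, with 1792 genes higher and 2183 lower in pXEN and 2039 and 2270 in XEN, and the calls of the 3 tested factors were kept. The number of factors called depended on the filter and on the Rn45s row. In pXEN against ES it was 4 with DESeq2, 4 with a minimum count of 3 (chosen after seeing the data) and 4 without a filter. In XEN against ES it was 4 with DESeq2, 5 with that minimum and 5 without a filter. More factors are tested there (6 of the 9 with DESeq2 or that minimum, 8 without a filter). With Rn45s removed 4 factors were tested, Tfap2c being the added one. Of these 3 were called in pXEN and 4 in XEN against ES, beside 4011 and 4270 of all 11012 tested genes. In pXEN against XEN the number was 0 with only those lines fitted, where Tfap2a failed the filter, and with edgeR on all lines it was 1. With single lines left out, 2543 to 3579 genes were called in pXEN against ES, 2474 to 3992 in XEN against ES and 322 to 448 in pXEN against XEN, and 2 to 3, 2 to 3 and 0 to 1 factors. The lowest counts came without ES2 (pXEN against ES and XEN against ES) and without pXEN2 (pXEN against XEN). The factors behind these numbers were not the same in each fit. Without ES2, Tfap2c, Gata2 and Gata3 also passed the filter and were tested. The Eomes call in pXEN and the Tead4 and Tfap2a calls in XEN against ES were lost there. Over all alternatives the adjusted p of Tead4 ran from 1.24e-05 to 0.0364 in pXEN and 0.000518 to 0.0785 in XEN against ES, and that of Eomes from 0.000348 to 0.0502 and 3.44e-05 to 0.0136. Where it was tested, Tfap2a ran from 0.0169 to 0.127 in XEN against ES and 0.0163 to 0.113 in pXEN against XEN. The cause of each lost call was not tested. Tfap2a gave no value where it failed the filter. No paired analysis was possible because the groups compared share fewer than 2 line numbers. Low counts kept 6 of the 9 factors out of the filtered fit of all 8 mouse lines and all rows, and the Tfap2a calls rest on a single XEN count.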
